A study of Homo sapiens with 6 samples.

Results

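MYEOV and 6 genes near it in the 11q13 region of chromosome 11 were followed across 3 groups of A549 cells, a human lung adenocarcinoma line grown in culture. The members are MYEOV, the siRNA target, and IGHMBP2, TPCN2, CCND1, LTO1, FADD and CTTN, which lie near it and are co-amplified with it in some cancers. They were taken as the rows of the deposited table whose platform annotation gives one of these symbols. This gave 8 rows for 7 genes, of 14884 genes with a named row, and FADD was the member with 2 rows. The groups were cells transfected with siMYEOV #1, cells transfected with siMYEOV #2, and cells transfected with siNC, the control siRNA, with 2 arrays in each. All groups received a siRNA with Lipofectamine RNAiMAX, and total RNA was taken 48 hours later. Values are log2 signals from RMA (robust multi-array average) of Affymetrix whole-transcript arrays, so a difference of 1 is a 2-fold difference in signal. Whether the 2 arrays of a group stem from different transfections is not stated in the labels, and p-values cover array-to-array spread only, which can be technical. A549 is a single line, its copy number at 11q13 was not measured here, and the sequence of neither MYEOV siRNA is given in the sources used here.

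As background, 11q13 is a region often gained as a block in tumours of the head and neck, breast, oesophagus and lung, and cyclin D1 is its best known driver. MYEOV was named for its overexpression in myeloma, where translocations at 11q13 can bring both MYEOV and CCND1 under a strong enhancer. Cyclin D1, encoded by CCND1, binds CDK4 or CDK6, and the complex phosphorylates the RB protein so that E2F factors can start S phase genes. LTO1 works with YAE1 to place an iron-sulphur cluster in ABCE1, a ribosome recycling factor. FADD is the adaptor that joins death receptors to caspase-8. CTTN, cortactin, holds branched actin filaments together with the Arp2/3 complex. TPCN2 encodes TPC2, a cation channel of lysosomes, and IGHMBP2 is a helicase of the UPF1-like family whose loss causes a motor neuron disease.

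In the order of gene starts in RefSeq (assembly GRCh38.p14), the members run IGHMBP2, TPCN2, MYEOV, CCND1, LTO1, FADD, CTTN. The RefSeq promoter table held 3 of the 7 members. Their sequences are shown because no other member had an entry there, and not for any trait of their signals. Each run spans the start site, on the strand of the gene. TPCN2 lies at chr11:69048682-69048981 on the plus strand, LTO1 at chr11:69675304-69675603 on the minus strand and FADD at chr11:70203046-70203345 on the plus strand, all in GRCh38.p14. Capitals mark, on either strand, the GC box GGGCGG, the CCAAT box CCAAT and the NRF1-type motif GCATGCGC.
TPCN2: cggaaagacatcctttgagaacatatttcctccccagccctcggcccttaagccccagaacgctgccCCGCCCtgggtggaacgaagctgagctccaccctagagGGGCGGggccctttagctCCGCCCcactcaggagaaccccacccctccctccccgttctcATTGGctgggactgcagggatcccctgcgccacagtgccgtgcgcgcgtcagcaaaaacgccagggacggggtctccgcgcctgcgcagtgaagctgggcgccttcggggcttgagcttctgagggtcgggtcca
LTO1: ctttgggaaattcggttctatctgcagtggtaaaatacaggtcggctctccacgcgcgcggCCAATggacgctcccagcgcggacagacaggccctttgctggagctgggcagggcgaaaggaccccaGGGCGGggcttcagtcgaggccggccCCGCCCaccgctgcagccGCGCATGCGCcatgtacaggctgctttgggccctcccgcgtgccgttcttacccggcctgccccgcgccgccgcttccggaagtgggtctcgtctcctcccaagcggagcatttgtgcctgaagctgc
FADD: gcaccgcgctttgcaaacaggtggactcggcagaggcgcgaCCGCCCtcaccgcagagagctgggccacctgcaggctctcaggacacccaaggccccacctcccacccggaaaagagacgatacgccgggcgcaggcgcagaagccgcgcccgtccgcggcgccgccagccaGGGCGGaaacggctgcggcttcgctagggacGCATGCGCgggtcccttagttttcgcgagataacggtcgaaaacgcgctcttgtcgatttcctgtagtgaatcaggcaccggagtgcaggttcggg
The TPCN2 sequence held 3 GC boxes and 1 CCAAT box, LTO1 held 2 GC boxes, 1 CCAAT box and 2 overlapping NRF1-type matches, and FADD held 2 GC boxes and 1 NRF1-type match. Of 35116 RefSeq promoters of this length, 45.0% held a GC box, 34.6% a CCAAT box and 3.05% the NRF1-type motif. A match describes letters in the sequence and not a bound site. The sequences were 66.0%, 67.0% and 66.7% G or C in the order TPCN2, LTO1 and FADD.

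Genes were tested where their mean over the 6 arrays was at least 5.45, the median over named genes. That kept 7442 genes, all 7 members among them. Each was fitted with limma over all 6 arrays, and "called" means a p under 0.05 after Benjamini-Hochberg adjustment over these genes. Replicate arrays differed from each other with an SD of 0.153 to 0.168 over these genes, and arrays of different groups with an SD of 0.219 to 0.274. Of the 9 fixed markers of A549, 4 had a named row (KRT8, KRT18, KRT19 and TXNRD1) and all 4 reached the level. Of 11 markers of leukocytes, endothelial cells and fibroblasts, 4 had a named row and 0 reached it. CDKN2A, which A549 is known to have lost by deletion, was also under the level, with a mean of 3.23.

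MYEOV was called lower with both siRNAs, and CCND1 with siMYEOV #2. No other member passed the test in any comparison. The calls of MYEOV depend on the filter, as it reached the level for testing through its siNC arrays. With no filter, MYEOV was called with siMYEOV #2 (limma adjusted p = 0.0446). It was then not called with siMYEOV #1 (0.135) or for the mean of both siRNAs (0.0792). For siMYEOV #1 against siNC, 1 of 7 members was called, and it was lower, against 4.66% of all genes tested (2.38% lower). For siMYEOV #2 against siNC, 2 of 7 were called, both lower, against 6.83% (4.23% lower). For the mean of both MYEOV siRNAs, 2 of 7 were called, 0 higher and 2 lower, against 5.42% (2.55% higher and 2.86% lower). Between the MYEOV siRNAs, 1 of 7 was called, 1 higher and 0 lower, against 9.15% (5.37% higher and 3.78% lower), and with limma's F test over the 3 groups, 2 of 7, against 11.4%. MYEOV is counted here although it is the target of the siRNAs. In these bulk samples, fewer cells that express a gene and less RNA per cell cannot be told apart.

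**Figure D1:**
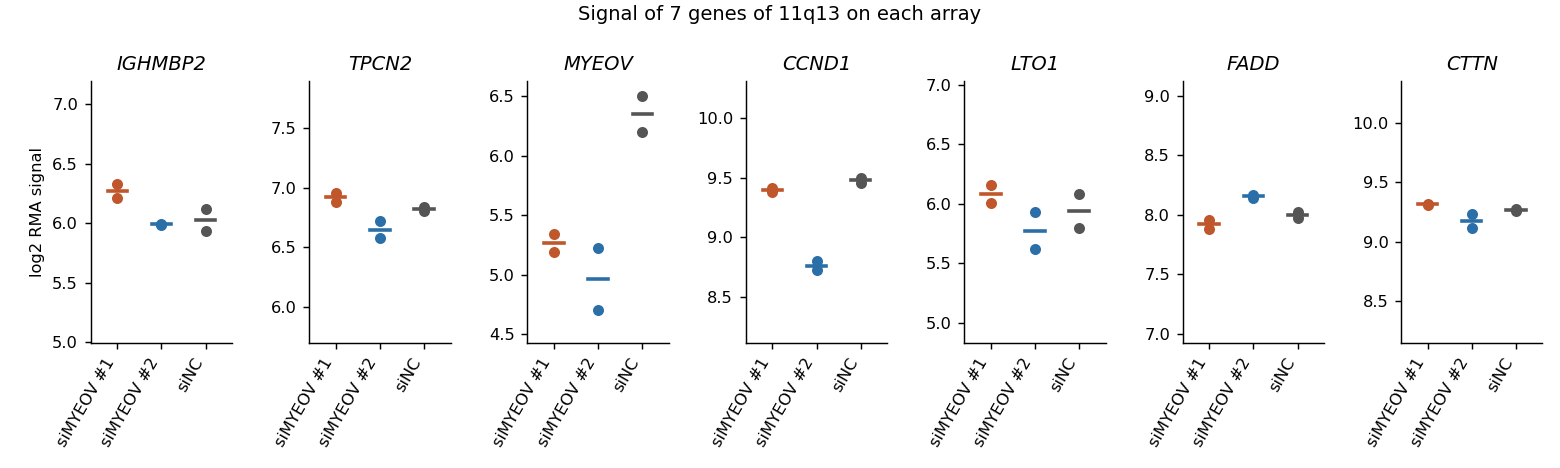
Log2 RMA signal (vertical axis, the same span of 2.2 in each panel) of each member on every array, with siMYEOV #1, siMYEOV #2 and siNC from left to right. Points are arrays and bars are the means of 2 arrays. MYEOV is lower on all 4 arrays of the MYEOV siRNAs than on both siNC arrays, and CCND1 is lower on the siMYEOV #2 arrays.

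MYEOV had signals of 5.34 and 5.19 on the siMYEOV #1 arrays, 5.23 and 4.70 on the siMYEOV #2 arrays, and 6.20 and 6.50 on the siNC arrays. All 4 arrays of the MYEOV siRNAs lay below both siNC arrays, as was so for 10.9% of all genes tested. The MYEOV siRNAs overlapped with each other. MYEOV fell by 1.09 ± 0.18 (SE) on the log2 scale with siMYEOV #1 and fell by 1.39 ± 0.18 with siMYEOV #2 (limma adjusted p = 0.0215 and 0.00516, n = 2 arrays per group). Among the 7442 genes tested, 9 had a lower change than MYEOV with siMYEOV #1 and 10 with siMYEOV #2. For the mean of both siRNAs, MYEOV had the lowest change of all genes tested, at -1.24 ± 0.15 (limma adjusted p = 0.00805). MYEOV reached the level for testing through its siNC arrays, where it was highest. These ranks therefore only describe its change and are no support for a fall. The difference between the siRNAs was 0.30, with a 95% confidence interval of -0.12 to 0.72, so a stronger effect of siMYEOV #2 of up to 0.72 is within the error. MYEOV was the least precisely measured member, with a standard error of 0.177 for each siRNA against siNC, where the median gene had 0.0831.

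The call of MYEOV with siMYEOV #1 was lost without siNC replicate 1 (limma adjusted p = 0.0671), siNC replicate 2 (0.112), siMYEOV #1 replicate 1 (0.0880) or siMYEOV #1 replicate 2 (0.146), and with no filter on dim genes (0.135). Its change stayed between -1.23 and -0.94 in these fits. For the mean of both siRNAs, the call was lost without siNC replicate 2 (0.0736) and with no filter (0.0792). MYEOV also lay close to the level required for testing. Its mean over all arrays was 5.53 against a level of 5.45, and without siNC replicate 1 or siNC replicate 2 it was 5.39 or 5.33, below the median of named genes. It therefore passed through its level in the siNC arrays, and its mean was 5.27 ± 0.11 with siMYEOV #1, 4.96 ± 0.37 with siMYEOV #2 and 6.35 ± 0.21 with siNC (SD, n = 2 each).

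CCND1, the gene next to MYEOV in RefSeq order among those with a named row, had signals of 9.38 and 9.41 with siMYEOV #1, 8.80 and 8.73 with siMYEOV #2, and 9.46 and 9.50 with siNC. Both siMYEOV #2 arrays lay below the other 4 arrays. Both siMYEOV #1 arrays were also under both siNC arrays, by a small amount. CCND1 fell by 0.72 ± 0.07 (SE) with siMYEOV #2, a fold of 0.608 in signal (limma adjusted p = 0.00162). With siMYEOV #1 its change was -0.08, with an interval of -0.24 to 0.08 (limma adjusted p = 0.577). The difference between the siRNAs was itself called, at 0.64 ± 0.07 (interval 0.48 to 0.80, limma adjusted p = 0.00196). The siMYEOV #2 change and the difference between siRNAs were called in all 17 alternative fits of each, with adjusted p of at most 0.0260 and 0.0301. The mean of both siRNAs, -0.40 ± 0.06 (limma adjusted p = 0.0127), averages unequal changes. Its call was lost without siNC replicate 1 or siNC replicate 2 (0.0764 and 0.0856) and with no filter (0.116).

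**Figure D2:**
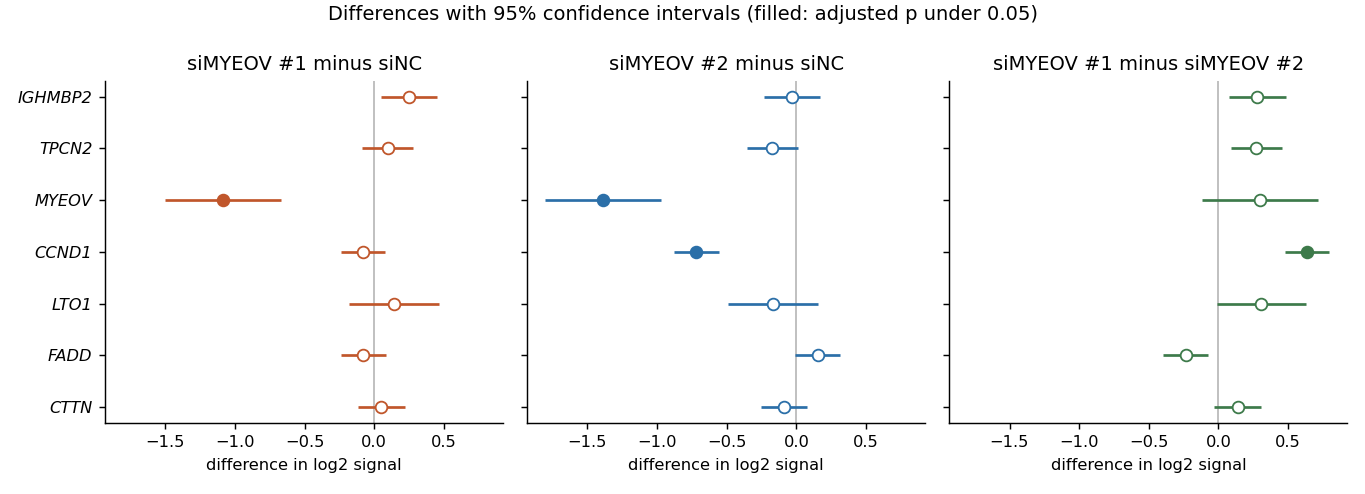
Difference in log2 signal (horizontal axis) of each member for siMYEOV #1 minus siNC, siMYEOV #2 minus siNC and siMYEOV #1 minus siMYEOV #2. Points are limma estimates, lines are 95% confidence intervals and filled points have an adjusted p under 0.05. The filled points are MYEOV with each siRNA, CCND1 with siMYEOV #2 and CCND1 in the difference between siRNAs.

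LTO1 lies beside CCND1. Its signals were 6.0 and 6.16 with siMYEOV #1, 5.93 and 5.62 with siMYEOV #2, and 6.08 and 5.79 with siNC. The siNC arrays overlapped with both MYEOV siRNAs. LTO1 differed from siNC by 0.14 with siMYEOV #1 (interval -0.18 to 0.46) and by -0.17 with siMYEOV #2 (interval -0.49 to 0.16), and neither passed the test (limma adjusted p = 0.640 and 0.545). A change of LTO1 as large as that of CCND1 with siMYEOV #2 lies outside the second interval.

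FADD had signals of 7.88 and 7.96 with siMYEOV #1, 8.17 and 8.14 with siMYEOV #2, and 8.03 and 7.97 with siNC in its brighter row. Both siMYEOV #1 arrays were below, and both siMYEOV #2 arrays above, the siNC arrays. The differences from siNC were small, at -0.08 (interval -0.24 to 0.08) and 0.16 (interval -0.01 to 0.32), and did not pass the test (limma adjusted p = 0.593 and 0.244). FADD was the member with a lower signal with siMYEOV #1 than with siMYEOV #2, by -0.23 (interval -0.40 to -0.07, limma adjusted p = 0.0834). This difference was called when the level for testing was raised to the 75th percentile of named genes (0.0309). The second FADD row had 5.51 and 5.76 with siMYEOV #1, 5.65 and 5.95 with siMYEOV #2, and 5.94 and 5.66 with siNC, and its groups overlapped. There the siMYEOV #2 change was -0.01 and not 0.16, so the 2 rows did not give the same sign.

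CTTN had signals of 9.31 and 9.32 with siMYEOV #1, 9.12 and 9.23 with siMYEOV #2, and 9.26 and 9.27 with siNC. The groups did not overlap, but they lay close together. CTTN differed from siNC by 0.05 with siMYEOV #1 (interval -0.12 to 0.22) and by -0.09 with siMYEOV #2 (interval -0.25 to 0.08). Neither passed the test (limma adjusted p = 0.760 and 0.539).

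TPCN2, on the other side of MYEOV, had signals of 6.96 and 6.88 with siMYEOV #1, 6.72 and 6.58 with siMYEOV #2, and 6.84 and 6.80 with siNC. Both siMYEOV #1 arrays were above, and both siMYEOV #2 arrays below, the siNC arrays. The differences from siNC were 0.10 (interval -0.09 to 0.28) and -0.17 (interval -0.36 to 0.01), which did not pass the test (limma adjusted p = 0.560 and 0.251). The MYEOV siRNAs differed in TPCN2 by 0.27 (interval 0.09 to 0.45, limma adjusted p = 0.0798).

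IGHMBP2 had signals of 6.21 and 6.33 with siMYEOV #1, 5.99 and 5.99 with siMYEOV #2, and 6.11 and 5.93 with siNC. The siMYEOV #1 arrays were above all others, and the siMYEOV #2 arrays lay between the siNC arrays. IGHMBP2 differed from siNC by 0.25 with siMYEOV #1 (interval 0.04 to 0.45, limma adjusted p = 0.171) and by -0.03 with siMYEOV #2 (interval -0.24 to 0.17, adjusted p = 0.873). The difference between the siRNAs was 0.28 (interval 0.08 to 0.48, adjusted p = 0.0957).

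Between the MYEOV siRNAs, 6 of 7 members had arrays that did not overlap, 5 of them higher and 1, FADD, lower with siMYEOV #1. With 2 arrays on each side this is common, as 54.5% of all genes tested did not overlap (27.1% higher and 27.5% lower). Against siNC, 3 members were higher and 3 lower without overlap with siMYEOV #1, where 24.4% of genes were higher and 24.4% lower. With siMYEOV #2, 1 was higher and 4 lower, where 25% of genes were higher and 25.6% lower. MYEOV was the member whose arrays overlapped between its siRNAs. The median difference between the siRNAs over the members, MYEOV included, was 0.28, where the median of all genes tested was -0.0005. The 16 other genes tested around MYEOV, described below, had a median of -0.017. Before adjustment, 4 of 7 members and 1 of these 16 genes had a limma p under 0.05 between the siRNAs, where 23.6% of all genes tested did. Both siRNA comparisons use the same 2 siNC arrays. Their values for the members are set side by side here, and no likeness between them is read from this.

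The members were compared with the other genes around MYEOV, taken as the 15 genes with a named row on each side that are no members. Of these 30 genes, 16 reached the level for testing. The 14 others had means of 2.35 to 5.22, among them the growth factor genes FGF19, FGF4 and FGF3, which lie between LTO1 and FADD. Genes of the region with no named row are not covered. Among them are ANO1, between FGF3 and FADD, and PPFIA1, between FADD and CTTN. For each siRNA against siNC, 1 of the 16 was called higher and 0 lower, against 2.28% and 2.59% of all genes tested called higher. Before adjustment, 3 of the 16 with siMYEOV #1 and 4 with siMYEOV #2 had a p under 0.05, where 19.2% and 22.2% of all genes tested did. The median changes of the 16 were 0.04 and 0.08, and their lowest were -0.10 and -0.07. None of the 16 was as low as MYEOV, or as CCND1 with siMYEOV #2.

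**Figure D3:**
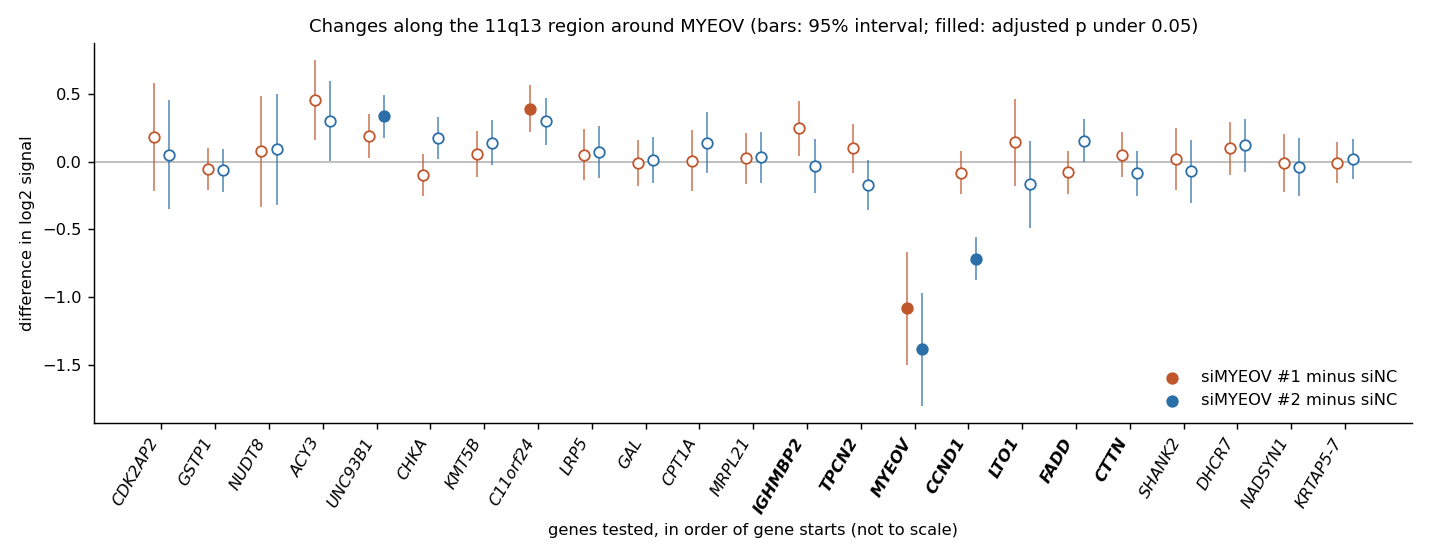
Difference in log2 signal from siNC (vertical axis) for the 23 genes tested around MYEOV, in the order of gene starts and not to scale, with the 7 members in bold. Orange is siMYEOV #1 and blue is siMYEOV #2, lines are 95% confidence intervals and filled points have an adjusted p under 0.05. MYEOV and, with siMYEOV #2, CCND1 stand below all other genes shown.

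C11orf24 had signals of 8.35 and 8.29 with siMYEOV #1, 8.25 and 8.20 with siMYEOV #2, and 7.87 and 7.99 with siNC. All 4 arrays of the MYEOV siRNAs were above both siNC arrays, as was so for 12% of all genes tested. C11orf24 rose by 0.39 ± 0.07 (SE) with siMYEOV #1 (limma adjusted p = 0.0346), and its change with siMYEOV #2 was 0.30 (0.0609). UNC93B1, which carries nucleic acid sensing Toll-like receptors to endosomes, had signals of 6.89 and 6.92 with siMYEOV #1, 7.09 and 7.01 with siMYEOV #2, and 6.72 and 6.71 with siNC. It rose by 0.33 ± 0.07 with siMYEOV #2 (limma adjusted p = 0.0333), and its change with siMYEOV #1 was 0.19 (0.184). Both calls were lost without each of the 6 arrays in turn, with adjusted p of 0.0614 to 0.176 for C11orf24 and 0.0683 to 0.156 for UNC93B1.

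CHKA, choline kinase alpha, differed between the siRNAs by -0.28 (interval -0.43 to -0.12, limma adjusted p = 0.0437), a call also lost without each array in turn (0.0609 to 0.191). Its signals were 7.67 and 7.71 with siMYEOV #1, 7.95 and 7.98 with siMYEOV #2, and 7.81 and 7.78 with siNC. The siMYEOV #1 arrays were below and the siMYEOV #2 arrays above those of siNC. ACY3, an aminoacylase, had the largest change of the 16 with siMYEOV #1, at 0.46, and a change of 0.30 with siMYEOV #2, and neither passed the test (limma adjusted p = 0.0984 and 0.215).

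Genes that work with the members were followed as lists. The counts of called genes in them stand against 2.28% of all genes tested called higher and 2.38% lower with siMYEOV #1, and 2.59% higher and 4.23% lower with siMYEOV #2. Counts before adjustment stand against 19.2% with siMYEOV #1 and 22.2% with siMYEOV #2. The lists are short, and nothing particular to a list is read from its count. For cyclin D1, the list of D cyclins, their kinases and CDK inhibitors had 12 genes, 6 with a named row and 3 tested, CCND1, CDK4 and CDK6. With siMYEOV #2, 2 of these 3 were called lower, CDK6 and CCND1, the member already counted, against 4.23% of all genes tested, and with siMYEOV #1 none was called by limma, with 1 at an unadjusted p under 0.05. CDK6 had signals of 9.42 and 9.37 with siMYEOV #1, 8.04 and 8.10 with siMYEOV #2, and 9.15 and 9.02 with siNC. The siMYEOV #2 arrays were the lowest and the siMYEOV #1 arrays the highest of the 6. CDK6 fell by 1.01 ± 0.08 (SE) with siMYEOV #2 (limma adjusted p = 0.00062) and had a change of 0.31 with siMYEOV #1 (0.0707). The siRNAs differed by 1.32 (interval 1.15 to 1.50, adjusted p = 0.000189), and this and the fall were called in all 17 alternatives of each. CDK4, the other kinase partner of cyclin D1, had changes of -0.02 and -0.03 (limma adjusted p = 0.921 and 0.871). CCND2 and CCND3, the other D cyclins, were under the level for testing, with means of 4.46 and 5.43.

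Downstream of cyclin D1, the RB, E2F and E cyclin list had 12 of 14 genes tested. With siMYEOV #1, 2 were called lower and 0 higher (2.38% and 2.28% of all genes tested), and with siMYEOV #2, 1 higher and 1 lower (2.59% and 4.23%). Before adjustment, 7 of the 12 with siMYEOV #1 and 8 with siMYEOV #2 had a limma p under 0.05. Of all genes tested, 19.2% and 22.2% did. The list's median change was -0.10 and 0.01, where all genes tested had medians of -0.003 and 0.0005. Cyclin E2, CCNE2, had signals of 5.84 and 5.69 with siMYEOV #1, 6.78 and 6.84 with siMYEOV #2, and 5.62 and 5.84 with siNC. The siMYEOV #2 arrays were above the other 4. CCNE2 rose by 1.08 ± 0.10 (SE) with siMYEOV #2 and had a change of 0.03 with siMYEOV #1 (limma adjusted p = 0.00133 and 0.894), with a difference of -1.04 between siRNAs (adjusted p = 0.00116). CCNE1 fell by 0.33 with siMYEOV #2 (adjusted p = 0.0473), a call lost without each array in turn (0.0653 to 0.184).

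CDC25A, the phosphatase that activates CDK2, fell by 0.70 ± 0.07 (SE) with siMYEOV #1 (limma adjusted p = 0.00430), and its change with siMYEOV #2 was -0.30 (0.0573). Its signals were 7.42 and 7.42 with siMYEOV #1, 7.76 and 7.89 with siMYEOV #2, and 8.12 and 8.12 with siNC. The call with siMYEOV #1 held without each array and was lost with no filter (0.0596). TFDP1, the partner of E2F factors, fell by 0.50 ± 0.08 with siMYEOV #1 and had a change of 0.25 with siMYEOV #2 (limma adjusted p = 0.0188 and 0.114). That call was lost without siNC replicate 2 (0.0901), siMYEOV #1 replicate 1 (0.110) or siMYEOV #1 replicate 2 (0.116), and with no filter (0.139). The TFDP1 difference between siRNAs was -0.74 (adjusted p = 0.00179) and was called in all 16 alternatives. RB1, the target of cyclin D1 complexes, had changes of 0.23 and 0.28 that did not pass the test (adjusted p = 0.143 and 0.0730). RBL1, a relative of RB1, had changes of 0.15 and -0.39 that did not pass it either.

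**Figure D4:**
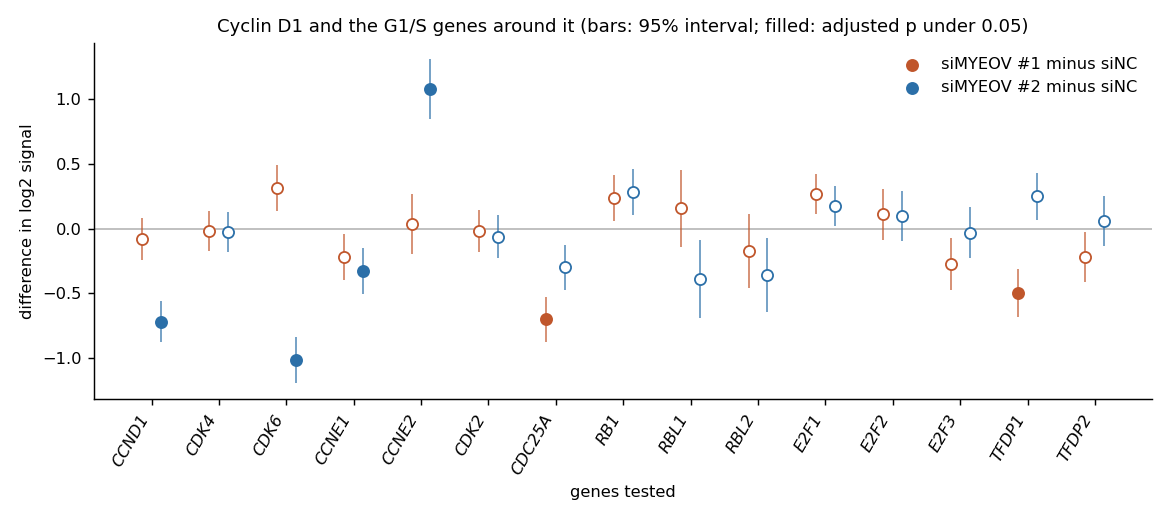
Difference in log2 signal from siNC (vertical axis) for the 15 tested genes of the D cyclin and of the RB, E2F and E cyclin lists. Orange is siMYEOV #1 and blue is siMYEOV #2, lines are 95% confidence intervals and filled points have an adjusted p under 0.05. With siMYEOV #2, CCND1, CDK6 and CCNE1 are lower and CCNE2 is higher, and with siMYEOV #1, CDC25A and TFDP1 are lower.

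Factors that drive CCND1 transcription or cyclin D1 turnover were tested for 12 of 16 genes, and limma called 0 with either siRNA against siNC. Before adjustment, 6 of the 12 with siMYEOV #1 and 3 with siMYEOV #2 had a p under 0.05, where 19.2% and 22.2% of all genes tested did. With siMYEOV #1, alternatives changed this count. FBXW8 was called with the 75th percentile filter (0.0401) and the trend and robust prior (0.0494), SP1 with that filter (0.0479), and FOSL1 and FBXW8 with the replicate number as a block (0.0265 and 0.0288). The largest change was that of FOSL1, an AP-1 subunit, at -0.64 and -0.34 (limma adjusted p = 0.134 and 0.378). Its signals were 8.36 and 8.15 with siMYEOV #1, 8.85 and 8.26 with siMYEOV #2, and 9.06 and 8.73 with siNC, and the siMYEOV #2 and siNC arrays overlapped. FBXW8 and FBXO4, ubiquitin ligase subunits reported to act on cyclin D1, had changes of 0.39 and 0.26 with siMYEOV #1 and 0.25 and 0.32 with siMYEOV #2, which did not pass the test. SP1 differed between the siRNAs by -0.29 (adjusted p = 0.0378), a call lost without each array in turn (0.0556 to 0.173).

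Of the genes that act with LTO1 in cytosolic iron-sulphur assembly, 7 of 11 were tested. With siMYEOV #1, 1 was called lower, and with siMYEOV #2, 2 were called lower (2.38% and 4.23% of all genes tested), with median changes of 0.01 and -0.05. YAE1, the direct partner of LTO1, had signals of 6.44 and 6.52 with siMYEOV #1, 6.75 and 6.76 with siMYEOV #2, and 6.77 and 6.85 with siNC, so that the siMYEOV #1 arrays were lowest. It fell by 0.33 ± 0.07 (SE) with siMYEOV #1 (limma adjusted p = 0.0479), close to the threshold, and the call was lost without each array in turn (0.0838 to 0.224). MMS19, which delivers clusters to DNA repair enzymes, had signals of 8.25 and 8.05 with siMYEOV #1, 7.25 and 7.31 with siMYEOV #2, and 8.02 and 8.01 with siNC. It fell by 0.73 ± 0.08 with siMYEOV #2 (adjusted p = 0.00321) and differed between the siRNAs by 0.87 (adjusted p = 0.00126), both in all 17 alternatives. CIAPIN1, an electron carrier early in the same route, fell by 0.34 with siMYEOV #2 (adjusted p = 0.0248), a call lost without each array in turn (0.0567 to 0.130). NUBP1, a scaffold for cluster assembly, had changes of 0.20 and 0.07.

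Of the endolysosomal channels and partners of TPC2, 7 of 9 were tested. With siMYEOV #2, 1 was called lower (4.23% of all genes tested), and with siMYEOV #1, limma called 0, with 3 at an unadjusted p under 0.05 (19.2% of all genes tested). JPT2, a binding protein for NAADP, the messenger that opens TPC2, had signals of 10.19 and 10.21 with siMYEOV #1, 9.01 and 8.95 with siMYEOV #2, and 10.15 and 10.08 with siNC. The siMYEOV #2 arrays were the lowest by over 1 unit of log2 signal. JPT2 fell by 1.13 ± 0.07 (SE) with siMYEOV #2 (limma adjusted p = 0.000295) and had a change of 0.09 with siMYEOV #1 (0.539). The siRNAs differed by 1.22 (interval 1.06 to 1.39, adjusted p = 0.000189), and both calls held in all 17 alternatives. TPCN1, the sister channel of TPCN2, had changes of 0.30 and 0.05 (adjusted p = 0.253 and 0.857). LAMP2, a lysosomal membrane protein, had changes of 0.19 and 0.15, and MCOLN3, a mucolipin channel, of 0.01 and 0.32. None of these passed the test.

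Death receptor genes were tested for 4 of 18, and limma called 0 with either siRNA, also at an unadjusted p under 0.05. They were BID, CFLAR, MLKL and TRADD, with changes of -0.14 to 0.12 with siMYEOV #1 and -0.12 to -0.04 with siMYEOV #2. Of the branched actin genes that act with cortactin, 7 of 27 were tested. CTTNBP2NL, a relative of a cortactin-binding protein, was called higher with siMYEOV #1, at 0.36 ± 0.07 (SE, limma adjusted p = 0.0430), a call lost without each array in turn (0.0743 to 0.209). With siMYEOV #2, limma called 0, with 1 at an unadjusted p under 0.05. ACTR3, a core Arp2/3 subunit, had changes of 0.04 and 0.03, and WASL, its activator, of -0.03 and 0.02. DNM2, dynamin 2, had changes of -0.02 and 0.19, NCK1 of 0.06 and -0.28, and NCK2 of 0.09 and 0.14, and none passed the test.

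Of the UPF1-like helicases and partners of IGHMBP2, 7 of 12 were tested. HELZ, a helicase of this family, was called higher with each siRNA and no other gene of the list was called. Its signals were 9.09 and 9.10 with siMYEOV #1, 9.27 and 9.23 with siMYEOV #2, and 8.64 and 8.77 with siNC. All 4 arrays of the MYEOV siRNAs were above both siNC arrays, as was so for 12% of all genes tested. HELZ rose by 0.39 ± 0.07 (SE) with siMYEOV #1 and by 0.54 ± 0.07 with siMYEOV #2 (limma adjusted p = 0.0350 and 0.00686). The siMYEOV #1 call was lost without each array in turn (0.0621 to 0.178) and the siMYEOV #2 call without siMYEOV #2 replicate 1 (0.0514) and with no filter (0.0750). DNA2, a nuclease and helicase, had changes of -0.28 and -0.31. UPF1 itself had changes of -0.19 and -0.14, and neither gene passed the test.

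The genes whose pattern over the 6 arrays was most like that of MYEOV or CCND1 were found by the root mean square difference of log2 values, each gene centred on its own mean. For MYEOV the nearest were TTPAL, ZNF275, MAK16, DIXDC1 and ETS1, at 0.286 to 0.343. They were lower on all 4 arrays of the MYEOV siRNAs than on both siNC arrays, as were 10.9% of all genes tested. TTPAL, the nearest, had 7.02 and 6.71 with siMYEOV #1, 6.27 and 5.90 with siMYEOV #2, and 7.37 and 7.33 with siNC. For CCND1 the nearest were ARCN1, TIMM17A, APEX1, DIP2B and C6orf62, at 0.0504 to 0.0606. ARCN1 had 10.37 and 10.27 with siMYEOV #1, 9.71 and 9.65 with siMYEOV #2, and 10.38 and 10.51 with siNC. On this measure the nearest genes to CCND1 were closer to it than any tested gene was to MYEOV. The measure is not scaled and grows with the size of a gene's changes and its replicate spread. Both were larger for MYEOV than for CCND1, so the distances of the 2 genes are not comparable. This likeness was used to choose these genes and is given with no test.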

How the data were processed

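RNA of 6 A549 samples was measured on Affymetrix whole-transcript arrays. The deposited values are log2 signals; the authors used RMA, as the notes on processing by the submitters say, with no version given. RMA corrects background, equalises distributions between arrays and summarises probes, and it compresses differences of dim genes. The array medians lay between 4.08 and 4.10, and nothing was normalized further. The number of arrays limits the precision.

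Rows were named through the platform annotation. Of 53617 rows, 16098 had 1 symbol, 0 had several and 37519 had none, and all 16098 gene IDs were in RefSeq (GRCh38.p14). For a gene with several rows, the row with the highest mean was used. Genes at or above the median of named genes were fitted in R 4.3.3 by lmFit and eBayes of limma 3.58.1 (3 groups, 3 residual and 4.09 prior degrees of freedom), with Benjamini-Hochberg adjustment. With 2 arrays in each of 2 groups, the smallest p of an exact permutation test is 0.333, so none was used. The fit was also run on simulated data whose spread was drawn from its own fitted prior. Such a run cannot check whether the model holds on these arrays.

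Members and lists were chosen with earlier results of these data known. Named genes were the members, neighbours called or among the 3 largest changes of the genes tested, list genes called or among the 2 largest changes per siRNA, and the 5 nearest in likeness to MYEOV and CCND1. CDK4, CCND2, CCND3, CDKN2A, RB1, TPCN1, ACTR3, WASL, UPF1, TRADD and FGF genes are given beside them as partners and were chosen after their values were seen. Alternatives were other filters, treatment of rows, normalizations, samples in the fit, variance prior, array weights, the replicate number as a block and each array left out. Fits without an array kept the same 7442 genes. Figures were drawn with matplotlib 3.10.9.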

Additional observations from a re-analysis of the deposited data

Results flagged for a closer look

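Among the members, the named neighbours and the named genes of the lists, 11 differed between the MYEOV siRNAs by a test of the difference itself (limma, Benjamini-Hochberg adjusted p under 0.05). Given as siMYEOV #1 minus siMYEOV #2 on the log2 scale, 6 were positive and 5 negative. CCND1, at 0.64, was the member among them (adjusted p = 0.00196), CHKA was a neighbour, and the others were list genes. CDK6, the kinase partner of cyclin D1, was at 1.32 and JPT2 at 1.22 (0.000189 for each). MMS19 was at 0.87 (0.00126), RBL1 at 0.55 (0.0422) and CIAPIN1 at 0.35 (0.0183). CCNE2 was at -1.04 (0.00116), TFDP1 at -0.74 (0.00179), CDC25A at -0.40 (0.0179), SP1 at -0.29 (0.0378) and CHKA at -0.28 (0.0437). List genes and neighbours were named in part for their calls and changes in these data, so their number is not to be read against the share of all genes called. In MYEOV itself the siRNAs differed by 0.30, which did not pass the test (0.370). With no filter, CHKA, CDC25A, RBL1, SP1 and CIAPIN1 were not called (limma adjusted p = 0.221, 0.123, 0.183, 0.205 and 0.132). Leaving out 1 array also ended some of the 11 calls. CHKA and SP1 were not called without any one of the 6 arrays (0.0609 to 0.191 and 0.0556 to 0.173). CDC25A was not called without siMYEOV #1 replicate 1, siMYEOV #1 replicate 2 or siMYEOV #2 replicate 2 (0.0924, 0.0993 and 0.0993). RBL1 was not called without any one of the 4 arrays of the MYEOV siRNAs (0.0810 to 0.203), nor was CIAPIN1 (0.0846 to 0.0993).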

How the results depend on the processing

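Over 28 member results, 441 of 453 alternative values were on the same side of the threshold, and 7 changed sign, all of results that were not called (LTO1, IGHMBP2, FADD and CTTN). With siMYEOV #1 against siNC, the 1 member called became 0 with no filter and with the filter at the 75th percentile, which leaves MYEOV out, and 0 to 1 with an array left out. With siMYEOV #2 against siNC, the 2 called became 1 with the 75th percentile filter and stayed 2 with each array left out. For the mean of both siRNAs, 2 became 0 with no filter, 1 with the 75th percentile filter and 0 to 2 with an array left out. Between the siRNAs, 1 became 2 with the 75th percentile filter (FADD added) and 2 with the replicate block (TPCN2 added, adjusted p = 0.0448), and stayed 1 with each array left out. With the F test, 2 became 1 with either of these filters, and 1 to 2 with an array left out. The 1 neighbour called in each of the 4 comparisons became 0 with no filter and 0 with any array left out, and 0 with only the arrays of the groups compared where that could be run. It became 2 for siMYEOV #2 with the trend and robust prior and 2 for the mean with the replicate block. Same-numbered arrays deviated together (correlations of 0.251, 0.265 and 0.205), but the labels do not say that the number marks a shared day. With the block, 420, 702, 531 and 922 genes were called for siMYEOV #1, siMYEOV #2, their mean and their difference, against 347, 508, 403 and 681 without it, and with no filter 39, 139, 26 and 195. The block called some list genes that the main fit did not call in the same comparison. With siMYEOV #1 they were FOSL1 and FBXW8 (limma adjusted p = 0.0265 and 0.0288). With siMYEOV #2 they were RBL1, MCOLN3 and CDC25A (0.0257, 0.0484 and 0.0481). Between the siRNAs they were CTTNBP2NL, YAE1 and MCOLN3 (0.0438, 0.0391 and 0.0428). Array weights also called YAE1 between the siRNAs (0.0438). With the trend and robust prior and with the 75th percentile filter, CDK6 and FBXW8 were also called with siMYEOV #1, and C11orf24 and CDC25A with siMYEOV #2. That filter also called SP1 with siMYEOV #1 and DNM2 between the siRNAs. The cause of these changes was not tested. Both the number of arrays and a signal near the level for testing limit MYEOV.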
